A study of Mus musculus with 6 samples.

Results

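The genes described here encode Rab GTPases and the SNARE machinery of vesicle fusion and exocytosis. They were chosen by symbol alone, as genes named Rab followed by a digit, Stx followed by a digit, Stxbp, Vamp, Snap23, Snap25, Snap29, Snap47, Syt followed by a digit, Sytl or Unc13, and 126 of the 18193 genes on the array met that rule. Each gene was read by its brightest probe set over the 6 arrays. RNA came from sorted mouse bone marrow cells that all carried the leukaemia fusion gene MLL-AF9. In the MLL-AF9/Mn1null group (n = 3) the gene of the transcriptional cofactor MN1 had been deleted with CRISPR-Cas9, and in the MLL-AF9/Mn1wt group (n = 3) it was intact. Cells of both groups had received an EGFP control vector and grew with interleukin 3, interleukin 6 and stem cell factor, with no further treatment per the labels. The labels name no clone, animal, age or separate culture for the replicates, so the tests weigh the spread among these arrays, and that spread may be technical.

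Rab GTPases are molecular switches that mark each compartment of the secretory and endocytic routes and recruit tethers and motors when bound to GTP. Fusion itself is driven by SNARE proteins, in which syntaxins and SNAP-25 family proteins of the target membrane zip up with VAMPs of the vesicle. Syntaxin-binding (SM) and Unc13 proteins prepare the SNAREs, synaptotagmins sense calcium, and synaptotagmin-like proteins link Rab27 on a granule to the plasma membrane. Mast cells, neutrophils, platelets and cytotoxic lymphocytes release their granules with this machinery.

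Of the 126 members, 110 had a mean signal above the filter level of log2 4.07 and were tested, and 16 lay below it. In limma's test, with Benjamini-Hochberg adjustment over all 14680 genes tested and a threshold of 0.05, 44 members rose in Mn1null, 20 fell and 46 did not pass. A large share of the whole array also passed, 48.8% of the genes tested, with 23.2% higher and 25.6% lower. Among the tested members the shares were 58.2% in all, 40% higher and 18.2% lower. The median difference was 0.078 on the log2 scale over the tested members and -0.0053 over all genes tested. A difference of at least 1 on the log2 scale, which is 2-fold, was reached by 17 members, or 15.5% of those tested, against 6.08% of all genes tested. Of the 110 tested members, 11 were higher by this size and 6 lower, where 3.77% of all genes tested were higher by it and 2.3% lower. Among all called members, 3 had 1 group mean under the filter level (Rab40b, Unc13a and Rab11fip4os1), and only Rab40b was among the 17. The arrays of the groups did not overlap for 64.5% of tested members and 57.7% of all genes tested.

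The 11 members that rose by this size came from several roles. Rab27b, Rab37 and Rab44, the syntaxin gene Stx3, the SNAP-25 family gene Snap23, the priming factor genes Unc13b and Unc13d and the Rab27 effector gene Sytl1 all rose at least 2-fold in Mn1null, and Rab38, Rab40b and Rab19 made up the 11. The largest falls were those of Rab34, a Golgi and cilium Rab, Rab17, an endosomal Rab first studied in epithelia, and Rab11fip5, a Rab11 effector. The adjusted p of the 17 members lay between 2.63e-07 and 0.0052, and in each of them the arrays of the groups were at least 0.53 apart.

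**Figure D1:**
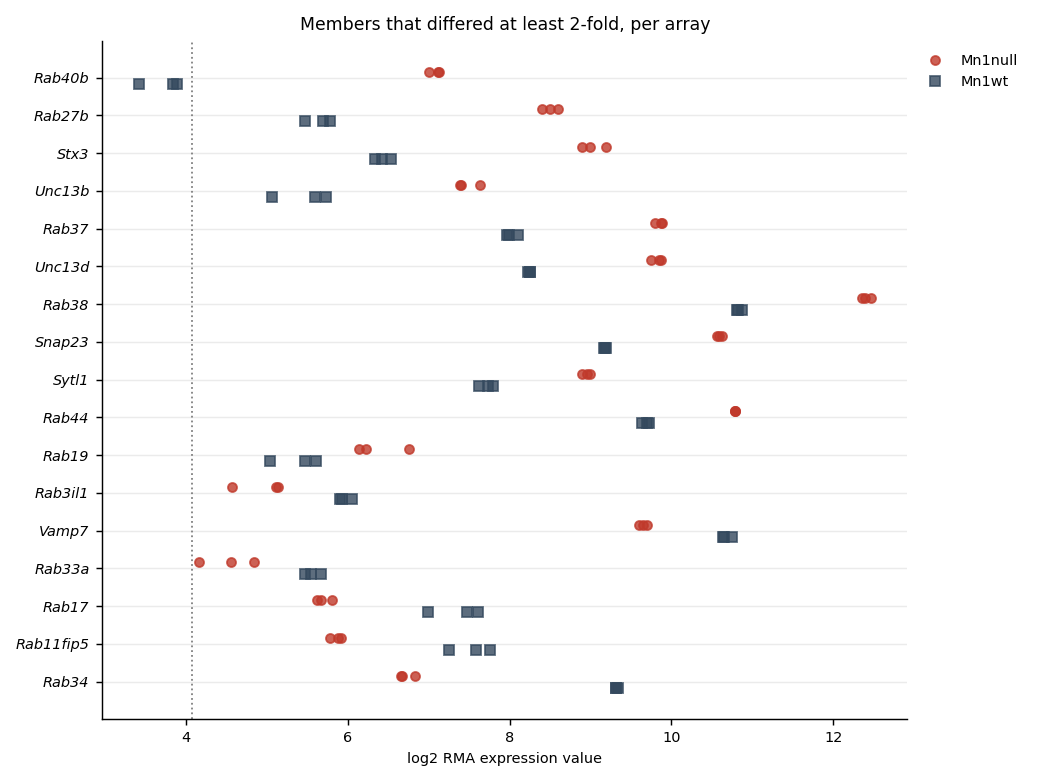
Log2 RMA expression values (horizontal axis) of the 17 members that passed limma's test with a difference of at least 1, with 1 point per array, red circles for the 3 Mn1null arrays and dark squares for the 3 Mn1wt arrays. The dotted line is the filter level of 4.07; the groups are at least 0.53 apart in every row, and only Rab40b has Mn1wt arrays below the line.

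Markers of granule-bearing cells moved between the same arrays. Of 10 mast cell and basophil markers tested, 6 rose and 1 fell, and the summed linear signal of the 11 found lay at 16266 to 16858 in Mn1null, against 5134 to 5335 in Mn1wt. Cpa3, a mast cell carboxypeptidase, was higher by 4.13, while the mast cell protease markers Cma1, Tpsab1 and Tpsb2 did not pass and Mcpt4 lay below the filter. Of the 5 eosinophil markers found, 4 were tested and rose, among them the granule gene Prg2 (3.51), with sums of 1619 to 1624 in Mn1null and 211 to 234 in Mn1wt, and Ccr3 lay below the filter. Of 10 megakaryocyte and platelet markers 4 rose, among them Itga2b (3.62), and 3 fell, namely Selp (-2.69), Ppbp (-1.07) and Pf4 (-0.98). The sums of the 10 were 3888 to 4387 in Mn1null, where Itga2b was the brightest (mean 11.54), and 1324 to 1372 in Mn1wt. Of 13 monocyte and macrophage markers, 8 fell, among them Ctss (-5.39), and 1 rose, with sums of 1062 to 1081 in Mn1null and 8197 to 8819 in Mn1wt.

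Of 12 neutrophil markers 7 rose, among them S100a9 (2.21), and 3 fell, namely Mmp8 (-4.53), Prtn3 (-0.46) and Ctsg (-0.27). The sums of the 12, in which Ctsg, Mpo and Prtn3 were the brightest, were 64305 to 64942 in Mn1null and 66087 to 66731 in Mn1wt. Of 7 erythroid markers tested, 3 rose and 2 fell. No T or NK cell marker passed of 6 tested (limma, 0 also at an unadjusted p under 0.05), and of 6 B cell markers 1 rose and 1 fell. Of 7 stroma and endothelium markers only Pecam1, which blood cells also carry, passed (1.78). Of 8 neuron markers found, 4 lay below the filter and 2 rose. The part of these cell types in the results was not tested, and in bulk RNA fewer cells of a type and less RNA per cell cannot be told apart. Labelling controls, bacterial RNAs added before labelling, also differed, by -0.85 on their 5′ probe sets (6.47 ± 0.059 in Mn1null and 7.32 ± 0.101 in Mn1wt, SD, n = 3 each) and by -0.30 on their 3′ probe sets, and their part was not tested. The probe set of Mn1 itself gave 4.13 ± 0.071 in Mn1null and 4.35 ± 0.200 in Mn1wt (SD, n = 3 each) and did not pass (limma adjusted p = 0.121). Both means lay close to the filter level of 4.07, so that a loss could hardly show on it. Where this probe set lies relative to the deletion is not stated in the labels.

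The secretory and exocytic Rabs were tested in full. Of 13, 5 rose, 8 did not pass and 0 fell in limma's test, also at an unadjusted p under 0.05, although Rab8b (-0.089) passed downward with an intensity trend (adjusted p = 0.0487). Over all genes tested, 23.2% were higher and 25.6% lower, and of the 5 rises that of Rab3a did not hold without single arrays. Rab27b, which docks secretory granules at the plasma membrane, had log2 values of 8.40, 8.59 and 8.50 in Mn1null, against 5.79, 5.69 and 5.48 in Mn1wt. Every Mn1null array was far above every Mn1wt array, a 7.19-fold difference (2.85 ± 0.091, SE; limma adjusted p = 1.15e-06). Other probe sets of the gene gave 3.29 and 2.66, while the remaining one gave -0.035 and did not pass.

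Rab37, a Rab of secretory granules first described in mast cells, had 9.87, 9.79 and 9.89 in Mn1null, against 7.97, 7.99 and 8.11 in Mn1wt. The groups lay well apart, with a difference of 1.82 ± 0.056 (SE; limma adjusted p = 1.02e-06), and the second probe set gave 2.01. Rab44, a large Rab with roles in granule release of mast cells, had 10.79, 10.78 and 10.79 in Mn1null, against 9.70, 9.72 and 9.63 in Mn1wt. Its Mn1null arrays were almost identical, and the difference was 1.10 ± 0.045 (SE; limma adjusted p = 3.28e-06). Rab10, which carries vesicles to the plasma membrane, and Rab3a, a Rab of synaptic and secretory vesicles, rose by 0.24 and 0.23. The call of Rab3a was lost when any 1 of the 3 Mn1wt arrays was left out (adjusted p between 0.0601 and 0.0757). It was also lost when only probe sets designed for 1 transcript were used. The dimmer probe set of Rab3a gave 0.12 and did not pass.

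Rab27a, the close relative of Rab27b that releases lytic granules, had 10.03, 10.06 and 9.75 in Mn1null, against 9.85, 9.87 and 9.92 in Mn1wt. The groups overlapped, because the Mn1null array of replicate 3 lay below all Mn1wt arrays, and its value of 0.067 (95% interval -0.14 to 0.27) failed the test (limma adjusted p = 0.576). Without that array the difference was 0.16 and passed (adjusted p = 0.0478). Among the dimmer probe sets of Rab27a, 2 passed with 0.32 and 0.41, and averaging all of them gave 0.21 (adjusted p = 0.0226). Rab3d, a granule Rab of exocrine and mast cells, differed by 0.0998 (95% interval -0.062 to 0.26) on its brightest probe set, 2 other probe sets passed with 0.48 and 0.34, and averaging gave 0.29 (adjusted p = 0.00408). The rest of this group, Rab8a, Rab8b, Rab13, Rab26, Rab3b and Rab3c, differed by -0.13 to 0.051 and did not pass, while a dimmer probe set of Rab8a passed at 0.42.

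Among the plasma membrane SNAREs, Stx3 and Snap23 stood out. Stx3, which encodes a syntaxin of granule fusion in mast cells and neutrophils, had 9.20, 9.0 and 8.89 in Mn1null, against 6.42, 6.33 and 6.53 in Mn1wt. The 6.06-fold difference (2.60 ± 0.091, SE; limma adjusted p = 1.63e-06) was far larger than the spread within either group, and 2 dimmer probe sets gave 1.61 and 1.52. Snap23, the SNAP-25 relative outside neurons, had 10.59, 10.62 and 10.56 in Mn1null, against 9.18, 9.19 and 9.17 in Mn1wt. The arrays of each group agreed closely, and the difference of 1.41 ± 0.043 (SE; limma adjusted p = 9.75e-07) was matched by 1.46 and 1.01 on its other probe sets. Stx4a, which encodes syntaxin 4, another plasma membrane partner of SNAP-23, had 9.33, 9.27 and 9.36 in Mn1null, against 9.33, 9.32 and 9.40 in Mn1wt. These values overlapped, and the difference of -0.029 had a 95% interval from -0.15 to 0.089 (limma adjusted p = 0.68).

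Of 14 syntaxins, 7 rose, 1 fell, 5 did not pass and 1, Stx19, lay below the filter, beside 23.2% higher and 25.6% lower over all genes tested. Stx11, which acts in granule release of cytotoxic lymphocytes and platelets, had 6.86, 6.79 and 6.81 in Mn1null, against 6.27, 6.28 and 6.32 in Mn1wt. It differed by 0.53 ± 0.044 (SE; limma adjusted p = 7.90e-05) without overlap. Stx2, of the plasma membrane, rose by 0.38, Stx16 of the trans-Golgi network by 0.33, Stx5a of the Golgi by 0.31, Stx17 of autophagosome fusion by 0.25 and Stx7 of late endosomes by 0.14. The call of Stx7 was lost when any 1 of 5 arrays was left out, and that of Stx17 when its probe sets were averaged (0.11, adjusted p = 0.149). Stx18, a syntaxin of the endoplasmic reticulum, fell by 0.27 ± 0.057 (SE; limma adjusted p = 0.00644), and each of its 5 probe sets was lower. Stx1a, Stx12, Stx6 and Stx8 differed by -0.24 to 0.13 and did not pass. For Stx12 a dimmer probe set passed at -0.65 and the average over probe sets at -0.34, Stx8 passed when averaged (0.21, adjusted p = 0.0305), and Stx1a passed at -0.38 without the Mn1wt array of replicate 3 (adjusted p = 0.0202).

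In the SNAP-25 family the other tested members also rose, Snap47 by 0.34 ± 0.043 (SE; limma adjusted p = 5.70e-04) and Snap29, which acts in autophagosome and endosome fusion, by 0.29. A second probe set of Snap29 passed the opposite way at -0.20, and averaging its probe sets lost the call (0.053, adjusted p = 0.464). Snap25, the neuronal member, lay below the filter with 3.24, 3.07 and 2.98 in Mn1null and 3.13, 2.82 and 2.65 in Mn1wt, and was not tested.

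VAMPs of the vesicle side moved in both directions. Of 7, 5 rose, 1 fell and 1 did not pass, beside 23.2% higher and 25.6% lower over all genes tested. Vamp8, the main granule VAMP of mast cells and platelets, had 12.23, 12.28 and 12.20 in Mn1null, against 11.75, 11.81 and 11.78 in Mn1wt, a difference of 0.46 ± 0.046 (SE; limma adjusted p = 1.97e-04) without overlap. Vamp7, which serves lysosome and late endosome exocytosis, ran the other way, with 9.69, 9.65 and 9.60 in Mn1null, against 10.75, 10.64 and 10.64 in Mn1wt. It fell by 1.03 ± 0.053 (SE; limma adjusted p = 9.04e-06), and its second probe set gave -0.78. Vamp2, the synaptic and granule VAMP, rose by 0.53 ± 0.071 and Vamp5 by 0.56 ± 0.052, while Vamp4 of the trans-Golgi network and Vamp1 rose by 0.22 and 0.21. Averaging probe sets lost the call of Vamp1 (0.075, adjusted p = 0.386), as did an intensity trend (adjusted p = 0.0786). Vamp3, of recycling endosomes, had 11.11, 11.10 and 11.15 in Mn1null and 11.14, 11.10 and 11.16 in Mn1wt, and its difference of -0.013 had a 95% interval from -0.12 to 0.092.

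Priming factors of the Unc13 family rose in 3 of 4 cases, where 23.2% of all genes tested were higher and 25.6% lower. For 1 of the 3, Unc13a, only the Mn1null mean lay above the filter level. Unc13d, which encodes Munc13-4, the partner of Rab27 in granule release, had 9.86, 9.74 and 9.85 in Mn1null, against 8.25, 8.23 and 8.25 in Mn1wt. The Mn1wt arrays were nearly equal and the difference was 1.57 ± 0.050 (SE; limma adjusted p = 1.12e-06). Unc13b, known from synapses, had 7.39, 7.40 and 7.64 in Mn1null, against 5.60, 5.73 and 5.07 in Mn1wt, with a wider spread in Mn1wt and a 4.02-fold difference (2.01 ± 0.172, SE; limma adjusted p = 8.86e-05). Unc13a, another neuronal family member, rose by 0.44 ± 0.059 (SE; limma adjusted p = 7.47e-04), with an Mn1wt mean of 3.97 under the filter level, which compresses the difference. Its level in Mn1null is better given as at least 1.27-fold higher, taken against the filter level. Unc13c differed by 0.079 and did not pass.

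Among the synaptotagmin-like proteins, Sytl1, a Rab27 effector of granulocytes and lymphocytes, had 8.95, 8.89 and 8.996 in Mn1null, against 7.74, 7.79 and 7.62 in Mn1wt. It rose by 1.23 ± 0.061 (SE; limma adjusted p = 7.29e-06) without overlap. Sytl2 and Sytl4 lay below the filter in both groups and were not tested. Syntaxin-binding proteins gave 1 rise, 1 fall and 4 that did not pass, beside 23.2% higher and 25.6% lower over all genes tested. Stxbp3, which encodes Munc18-3, a partner of syntaxin 4, had 7.85, 7.84 and 7.68 in Mn1null, against 8.40, 8.60 and 8.60 in Mn1wt, and fell by 0.74 ± 0.078 (SE; limma adjusted p = 2.31e-04). Stxbp2, which encodes Munc18-2, the partner of syntaxin 11 and syntaxin 3 in granule release, had 10.13, 10.14 and 10.25 in Mn1null and 10.00, 10.09 and 10.02 in Mn1wt. Its groups did not overlap, yet 0.14 (95% interval 0.0075 to 0.27) missed the threshold (limma adjusted p = 0.0775). It passed with quantile normalization (adjusted p = 0.0293) and with an intensity trend (adjusted p = 0.0143). Stxbp6, also called amisyn, rose by 0.45 ± 0.093, and Stxbp4, Stxbp5 and Stxbp5l differed by 0.032 to 0.099 and did not pass.

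Synaptotagmins, which are best known from neurons, were mostly dim. Of 16, 6 lay below the filter, including Syt2, a calcium sensor studied in mast cells, at 3.74, 4.31 and 4.10 in Mn1null and 4.24, 4.07 and 3.89 in Mn1wt. Among 10 that could be tested there was 1 rise, Syt11, and 1 fall, Syt7, where 23.2% of all genes tested were higher and 25.6% lower. Syt11, an atypical member without calcium binding, rose by 0.33 ± 0.070 (SE; limma adjusted p = 0.00665), and 3 of its other 4 probe sets passed the same way. Syt7, the calcium sensor of lysosome exocytosis, fell by 0.24 ± 0.069 (SE; limma adjusted p = 0.025), a call lost when any 1 of 4 arrays was left out. The 8 that did not pass differed by -0.11 to 0.14.

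**Figure D2:**
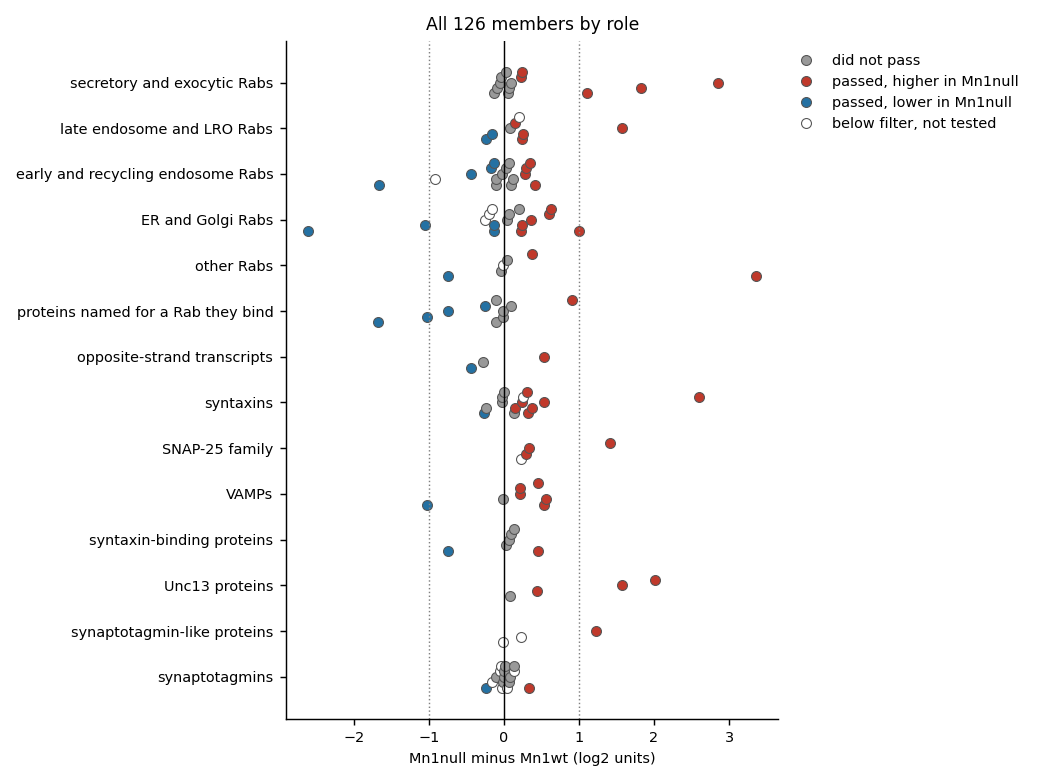
Difference of mean log2 values, Mn1null minus Mn1wt (horizontal axis), for all 126 members, with 1 point per gene and rows by role (LRO stands for lysosome-related organelle). Colours show limma's result, open points are genes below the filter, and dotted lines mark differences of -1 and 1; points lie on both sides of 0 in most roles, secretory Rabs included, and the points farthest from 0 are Rab40b at 3.36 and Rab34 at -2.60.

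Outside the secretory group, the Rabs of lysosome-related organelles gave 1 large rise. Rab38, which sorts cargo to melanosomes and other lysosome-related organelles, had 12.46, 12.39 and 12.35 in Mn1null, against 10.87, 10.82 and 10.82 in Mn1wt. The difference of 1.57 ± 0.050 (SE; limma adjusted p = 1.12e-06) was seen also on its second probe set, at 1.50. Rab32, its close relative with an overlapping role in melanosomes, had 10.22, 10.23 and 10.27 in Mn1null, against 10.38, 10.44 and 10.38 in Mn1wt. These arrays did not overlap, but the fall of 0.16 (limma adjusted p = 0.0243) was lost when any 1 of 4 arrays was left out (adjusted p up to 0.0799). Rab7, the Rab of late endosomes, rose by 0.25 ± 0.053 with values of 11.92, 11.96 and 12.02 in Mn1null, against 11.65, 11.74 and 11.76 in Mn1wt. Rab29, of the lysosome and trans-Golgi network, rose by 0.25, while Rab9, which returns receptors from late endosomes to the Golgi, fell by 0.24. Rab24 rose by 0.15, a call lost when any 1 array was left out, Rab7b differed by 0.076 and did not pass, and Rab9b lay below the filter.

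Among 15 tested Rabs of early and recycling endosomes there were 4 rises and 4 falls, close to the shares of all genes tested (23.2% higher and 25.6% lower), and 2 of the falls, those of Rab5a and Rab21, did not hold without single arrays. Rab17 had 5.81, 5.67 and 5.63 in Mn1null, against 7.00, 7.47 and 7.61 in Mn1wt, with the wider spread in Mn1wt. It fell by 1.66 ± 0.154 (SE; limma adjusted p = 1.30e-04), and its second probe set gave -0.74. Rab35, of fast recycling, had 9.11, 9.13 and 9.13 in Mn1null, against 9.54, 9.55 and 9.56 in Mn1wt, and fell by 0.43 ± 0.041 (SE; limma adjusted p = 1.43e-04).

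Rab5a, the early endosome Rab that also shapes granules in mast cells, fell by 0.17, and Rab21 by 0.14. Neither call held once any 1 of 4 arrays (Rab5a) or of 6 arrays (Rab21) was dropped, although a dimmer probe set of Rab21 passed at -0.35. Among other recycling Rabs, Rab11a rose with 11.28, 11.25 and 11.24 in Mn1null, against 10.83, 10.82 and 10.89 in Mn1wt (0.41 ± 0.045, SE; limma adjusted p = 2.81e-04), as did Rab11b by 0.35 and Rab4b by 0.28. Rab31, of the trans-Golgi to endosome route, rose by 0.29. Rab4a was the member below the filter with the largest difference, at -0.92, and it had 3.63, 3.27 and 3.79 in Mn1null and 4.72, 4.40 and 4.34 in Mn1wt. Rab5b, Rab5c, Rab14, Rab15, Rab20, Rab22a and Rab25 differed by -0.11 to 0.13 and did not pass.

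Rabs of the endoplasmic reticulum and Golgi held the strongest fall of all members. Rab34 had 6.83, 6.67 and 6.66 in Mn1null, against 9.31, 9.34 and 9.32 in Mn1wt, a 6.08-fold lower level (-2.60 ± 0.058, SE; limma adjusted p = 2.63e-07), with -2.51 on its second probe set. Rab33a fell to 4.16, 4.85 and 4.56 in Mn1null, against 5.67, 5.55 and 5.47 in Mn1wt (-1.04 ± 0.163, SE; limma adjusted p = 0.00159), with the wider spread among the dim Mn1null arrays. Rab33b, a Golgi Rab with a role in autophagy, ran the other way, with 8.65, 8.54 and 8.59 in Mn1null, against 7.93, 8.08 and 7.96 in Mn1wt (0.60 ± 0.057).

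Rab19 rose by 1.00 ± 0.202 (SE; limma adjusted p = 0.0052), with 6.14, 6.22 and 6.76 in Mn1null, against 5.47, 5.04 and 5.60 in Mn1wt. Rab2b, Rab6b, Rab18 and Rab6a rose by 0.63, 0.36, 0.24 and 0.23. The abundant Golgi Rabs Rab1a and Rab2a each fell by 0.13, and both calls were lost when any 1 of 6 arrays (Rab1a) or of 5 arrays (Rab2a) was left out. Dimmer probe sets of Rab2a passed as lower at -0.38, -0.53 and -0.77, while those at -0.13 and -0.26 did not pass. For Rab1a a dimmer probe set passed the opposite way at 0.30. Rab1b, Rab36 and Rab43 differed by 0.035 to 0.20 and did not pass, and Rab30, Rab39 and Rab39b lay below the filter.

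The largest rise of any member was that of Rab40b, an unusual Rab that recruits a ubiquitin ligase. It had 7.11, 7.13 and 7.00 in Mn1null, against 3.42, 3.90 and 3.85 in Mn1wt (3.36 ± 0.126, SE; limma adjusted p = 2.25e-06). Because its Mn1wt mean lay under the filter level, the level in Mn1null is better given as at least 8.04-fold higher, taken against that level, and a second probe set gave 1.02. Its relative Rab40c rose by 0.38, and Rab23, a negative regulator of Hedgehog signalling, fell by 0.74 ± 0.065 (SE; limma adjusted p = 1.00e-04) with all 3 of its probe sets lower. Rab12 and Rab28 did not pass, and Rab42 lay below the filter.

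Among 10 proteins named for the Rab they bind there were 1 rise, 4 falls and 5 that did not pass, where 23.2% of all genes tested were higher and 25.6% lower. Rab11fip5 had 5.88, 5.78 and 5.92 in Mn1null, against 7.59, 7.25 and 7.76 in Mn1wt, and fell by 1.67 ± 0.124 (SE; limma adjusted p = 4.59e-05). The family member Rab11fip4 rose instead, with 7.74, 7.44 and 7.77 in Mn1null, against 6.77, 6.73 and 6.75 in Mn1wt (0.90 ± 0.090). The exchange factor genes Rab3il1 and Rab3ip, which activate Rab8, fell by 1.02 ± 0.153 and 0.75 ± 0.076, and Rab3gap2, a subunit of the Rab3 GTPase-activating complex, fell by 0.26. Rab11fip1, Rab11fip2, Rab11fip3, Rab3gap1 and Rab5if differed by -0.11 to 0.096 and did not pass. The rule also took in 3 opposite-strand transcripts of Rab loci, of which Rab10os fell by 0.44 and Rab11fip4os1 rose. The Mn1wt mean of Rab11fip4os1 lay under the filter level, so that its level in Mn1null was at least 1.37-fold higher, taken against that level, and its call was lost at a threshold of 0.01 (adjusted p = 0.0117). The third, Rab26os at -0.28 (limma adjusted p = 0.061), passed in 4 of the alternatives tried, with adjusted p down to 0.038.

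Among related members, the measured differences ran apart in several pairs and went the same way in others. Rab40b and Rab40c (3.36 and 0.38) rose together, as did Unc13d and Unc13a (1.57 and 0.44). So did Rab11a and Rab11b (0.41 and 0.35) and Rab6a and Rab6b (0.23 and 0.36). The pairs shown were picked after their values had been seen, and the differences between the members of a pair were not tested. Besides Rab27b with Rab27a, Rab38 with Rab32 and Stx3 with Stx4a, the pairs Rab33b and Rab33a, Rab2b and Rab2a, Vamp8 and Vamp7, and Rab11fip4 and Rab11fip5 each joined a member that rose with one that fell. Of these, the calls of Rab2a and Rab32 did not hold without single arrays, as given above. Dimmer probe sets of Rab2a still passed as lower, and dimmer ones of Rab27a passed as higher, at 0.32 and 0.41. For Rab11fip4 a second probe set gave 0.0041 and did not pass.

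**Figure D3:**
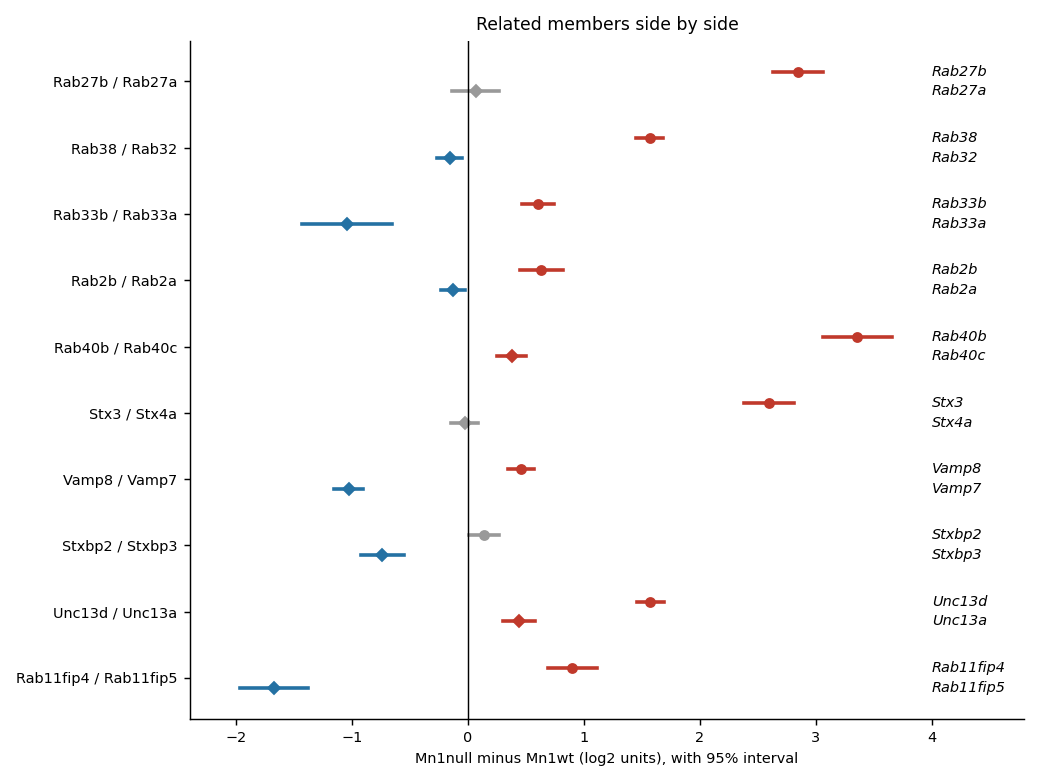
Difference of mean log2 values, Mn1null minus Mn1wt (horizontal axis), with its 95% interval from limma for 10 pairs of related members, circles for the first gene named and diamonds for the second. Red marks a rise, blue a fall and grey a difference that did not pass. Each gene was read by its brightest probe set, on which the interval of Rab27b lies near 2.85 while that of Rab27a spans 0.

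Sequences upstream of the start are given for the exocytic members that rose at least 2-fold and were matched by symbol in the RefSeq promoter table used. A pair of Rabs that fell, Rab17 and Rab33a, is set beside them. The pair does not stand for the other members that fell at least 2-fold, such as Rab34, which are not shown. Rises and falls were therefore not compared by these windows. RefSeq promoters (GRCm38.p6) were matched by symbol for 100 of the 126 members; Rab27b, Rab37, Rab38, Rab44 and Unc13d are named only. Each line gives the 250 bases before a RefSeq start, 5′ to 3′ on the gene's strand. They are chr2:120567421-120567670 (+) for Snap23, chr4:43058703-43058952 (+) for Unc13b, chr19:11819404-11819653 (-) for Stx3, chr4:133263088-133263337 (-) for Sytl1, chr1:90967668-90967917 (-) for Rab17 and chrX:48519035-48519284 (+) for Rab33a. Capitals mark matches, on either strand, to a GATA motif and to an E-box, which do not overlap each other here and were picked after the values had been seen. The GATA motif was searched as AGATAA, with variants that end in a different base, as in AGATAG, that begin with a different base, as in TGATAA, or that do both, as in TGATAG. The E-box was searched as CACGTG, with a second form that differs in its middle, as in CATGTG.
Snap23: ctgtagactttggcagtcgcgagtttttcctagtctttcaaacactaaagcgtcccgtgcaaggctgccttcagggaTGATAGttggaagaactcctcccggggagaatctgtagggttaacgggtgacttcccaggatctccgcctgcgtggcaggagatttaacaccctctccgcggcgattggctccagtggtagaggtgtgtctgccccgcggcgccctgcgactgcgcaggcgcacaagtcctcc
Unc13b: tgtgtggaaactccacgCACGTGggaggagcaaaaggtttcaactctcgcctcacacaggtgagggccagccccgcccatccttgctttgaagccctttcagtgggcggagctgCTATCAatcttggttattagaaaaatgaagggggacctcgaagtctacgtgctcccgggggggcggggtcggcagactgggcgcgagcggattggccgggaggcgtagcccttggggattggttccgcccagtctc
Stx3: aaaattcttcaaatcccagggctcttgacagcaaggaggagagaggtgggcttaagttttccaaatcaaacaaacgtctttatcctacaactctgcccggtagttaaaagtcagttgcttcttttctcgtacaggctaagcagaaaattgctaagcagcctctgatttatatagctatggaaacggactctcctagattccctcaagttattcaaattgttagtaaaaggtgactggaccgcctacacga
Sytl1: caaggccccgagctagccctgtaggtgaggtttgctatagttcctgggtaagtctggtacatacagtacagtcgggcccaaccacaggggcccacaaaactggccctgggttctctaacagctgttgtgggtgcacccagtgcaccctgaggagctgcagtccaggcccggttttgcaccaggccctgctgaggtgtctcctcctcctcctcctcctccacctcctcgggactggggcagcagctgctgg
Rab17: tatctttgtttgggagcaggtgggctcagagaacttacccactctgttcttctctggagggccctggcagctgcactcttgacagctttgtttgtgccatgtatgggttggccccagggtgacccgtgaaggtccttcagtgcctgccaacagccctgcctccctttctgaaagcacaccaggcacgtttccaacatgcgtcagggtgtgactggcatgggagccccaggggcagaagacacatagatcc
Rab33a: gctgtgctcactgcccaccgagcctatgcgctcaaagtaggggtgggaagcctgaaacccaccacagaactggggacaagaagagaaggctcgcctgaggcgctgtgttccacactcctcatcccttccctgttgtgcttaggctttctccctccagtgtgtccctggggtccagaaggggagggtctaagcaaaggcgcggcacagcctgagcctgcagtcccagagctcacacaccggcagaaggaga
Snap23 holds 1 GATA match, starting 173 bases before the start, and Unc13b holds 1 GATA match and 1 E-box match. Stx3, Sytl1, Rab17 and Rab33a hold neither. The GATA letters occur in 26.5% of all 32851 promoter windows of the same length, and in at least 1 window of 22 of the 100 members with a promoter. The E-box letters occur in 17.6% of all windows and for 20 of the 100 members. The Snap23 and Unc13b windows hold 17 and 16 CpG pairs, those of Stx3, Sytl1, Rab17 and Rab33a 6, 4, 3 and 7, and the median over all windows is 6. A match of letters describes the sequence and not binding.

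For members that passed, most further probe sets passed in the same direction. Of 285 probe sets annotated to members, 120 beyond those used above were tested in a fit over all probe sets with 1 gene, 74 of them for members that passed. Of these 74, 51 passed in the same direction, 21 did not pass and 2 passed the opposite way, 1 each for Snap29 and Rab1a. A probe set of Rab10 at -0.016 was among those that did not pass. Over the whole fit of probe sets, 12163 of 26395 passed in either direction. Some members that did not pass had a dimmer probe set that did, among them Rab14 (0.24), Rab7b (0.25) and Vamp3 (0.19). For Stxbp5, dimmer probe sets passed in opposite directions, at 0.39 and -0.15. A single probe set read 42 members, among them Rab44, Sytl1, Unc13d and Vamp8, so that no second probe set bears on them. Some brightest probe sets, such as those of Rab3a, Rab2b, Snap47, Stx18 and Syt11, are of a design that can also read other transcripts.

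**Figure D4:**
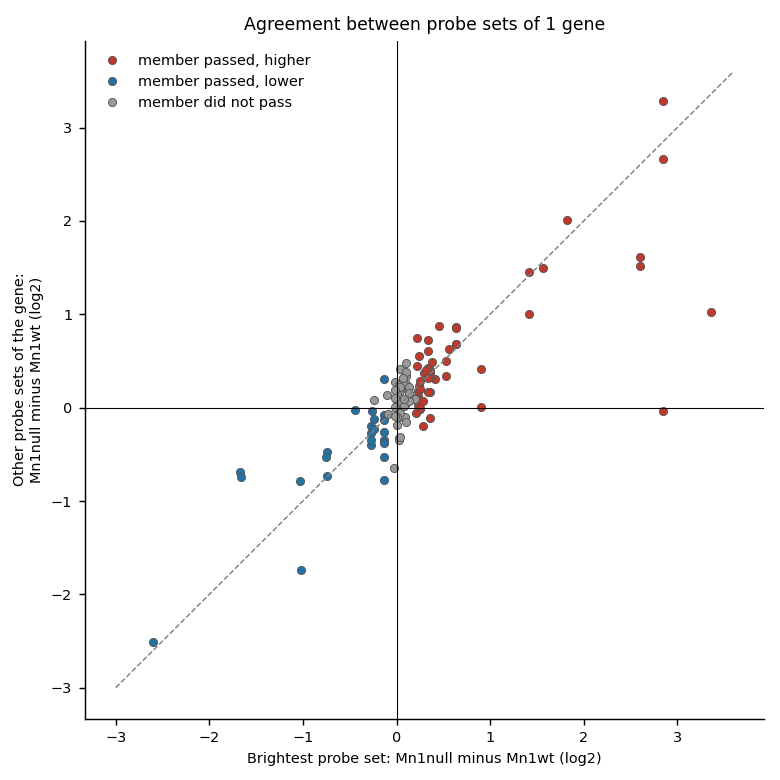
Difference of mean log2 values, Mn1null minus Mn1wt, on the brightest probe set of a member (horizontal axis) and on each further tested probe set of the same gene (vertical axis), coloured by the result of the member. The dashed line marks equal differences; most points lie in the same quadrant on both axes, and 1 probe set of Rab27b lies at -0.035 where the brightest gives 2.85.

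Genes of the same pathway outside the rule were taken from fixed lists. Of 157 genes that could be tested 44 rose and 30 fell, against the 23.2% and 25.6% of all genes that passed in each direction, with a median of 0.042. Among other SNAREs and the disassembly machinery, 9 of 24 rose and 5 fell. The SNARE relative Sec22c rose by 1.07 ± 0.082 and Snapin, a SNAP-25-binding protein, by 0.46 ± 0.045, while the p97 cofactor gene Nsfl1c fell by 0.59 ± 0.047 and Bnip1, a SNARE of the endoplasmic reticulum, by 0.48 ± 0.047 (limma adjusted p between 5.24e-05 and 1.73e-04). Averaged over its probe sets, Snapin ran the other way at -0.073 (adjusted p = 0.212).

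Of 12 exocyst genes, 2 rose and 4 fell, beside 23.2% higher and 25.6% lower over all genes tested. Exoc4, which encodes the subunit Sec8, rose by 1.11 ± 0.049 and Exoc6b by 0.68 ± 0.062, while Rala, the small GTPase that binds the exocyst, fell by 1.25 ± 0.089 and Exoc8 by 0.42 ± 0.065 (limma adjusted p between 4.58e-06 and 0.00149). Of 33 Rab exchange factors, 12 rose and 6 fell. Dennd1c (0.88 ± 0.064) and the Rab5 exchange factor gene Rin3 (0.83 ± 0.053) rose, while Dennd5b (-1.53 ± 0.062) and the TRAPP subunit gene Trappc5 (-0.55 ± 0.058) fell.

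The counts of the remaining lists stand beside 23.2% higher and 25.6% lower over all genes tested. Of 31 Rab GTPase-activating proteins, 7 rose, among them Tbc1d2 (1.07 ± 0.090) and Tbc1d9b (0.84 ± 0.054), and 6 fell, among them Tbc1d4, a regulator of glucose transporter vesicles (-1.90 ± 0.134), and Tbc1d16 (-0.58 ± 0.060). Of 29 Rab effectors, 7 rose, with the inositol phosphatase genes Inpp5b (0.59 ± 0.060) and Ocrl (0.43 ± 0.066), and 5 fell, with Gcc2 (-0.49 ± 0.067) and Rilpl2 (-0.29 ± 0.043). Of 7 genes that prenylate or recycle Rabs, Rabac1 (1.02 ± 0.046), Chml (0.50 ± 0.050) and 1 other rose, and both Rab prenyltransferase subunit genes, Rabggta (-0.34 ± 0.058) and Rabggtb (-0.17 ± 0.052), fell. Rabggtb lost its call without any 1 of the 6 arrays, and Chml (0.20) when its probe sets were averaged. Of 11 tethers of the HOPS, CORVET and GARP complexes, Vps39 (0.45 ± 0.083) and Vps41 (0.31 ± 0.063) rose and Vps11 (-0.23 ± 0.054) fell, the last with -0.0044 when its probe sets were averaged. Of 10 calcium-dependent priming factors and complexins, Baiap3, which encodes an Unc13 relative (0.82 ± 0.072), and Cplx3 (0.30 ± 0.074) rose and Myof (-0.25 ± 0.064) fell, the call of Myof being lost without the Mn1null array of replicate 3 (adjusted p = 0.0518).

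**Figure D5:**
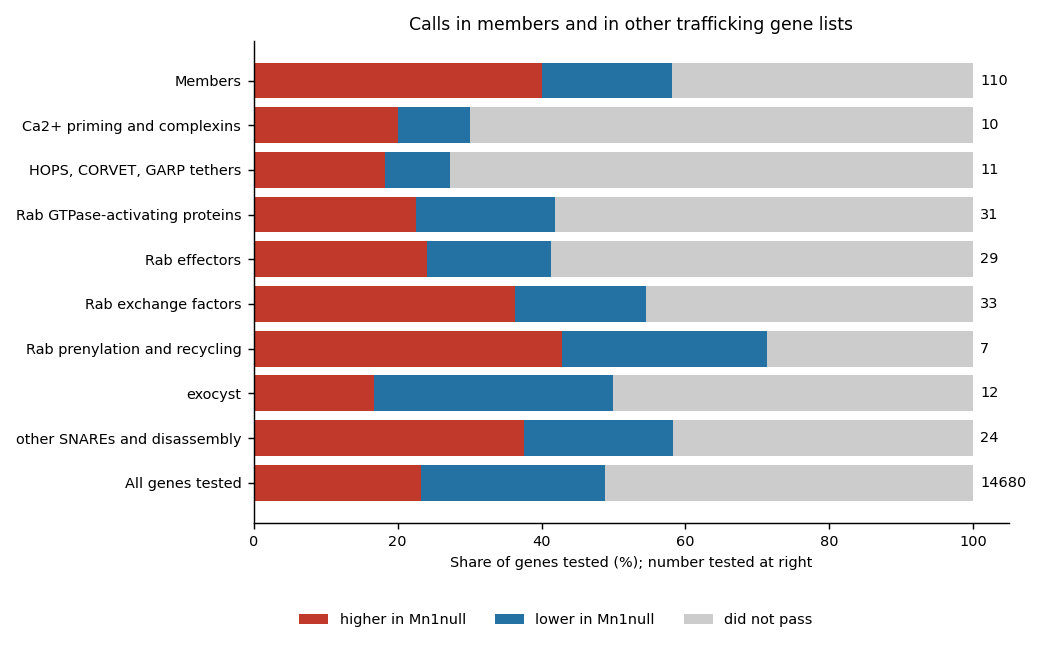
Share of tested genes (horizontal axis, percent) that were higher in Mn1null, lower in Mn1null or did not pass limma's test, for the members, for 8 fixed lists of other trafficking genes and for all genes tested, with the number tested at the right. Members were higher in 40% and lower in 18.2% of cases, and all genes in 23.2% and 25.6%.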

How the data were processed

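The authors deposited a table of log2 expression, 1 value per probe set and array. Per the submitters' processing notes they come from RMA, which subtracts background, gives all arrays 1 distribution and joins the probes of a set. Total RNA differences are thereby lost and dim genes are compressed. The RMA version was not given in the sources used. The 6 columns, 3 per group by sample title, had medians of 5.17 to 5.23, and arrays of 1 group correlated at 0.997 to 0.998; the number of arrays limits the precision. Of 45101 probe sets, 64 controls were left out, 34945 named 1 gene in the platform annotation and were used, 932 named several and 9160 were not listed. The brightest probe set stood for each of 18193 genes, and 3513 genes with a mean under the 30th percentile (log2 4.07) were not tested. Sytl3 was read only by probe sets shared with other genes and is no member.

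The comparison used limma 3.58.1 (lmFit, then eBayes; R 4.3.3), 2-sided, with Benjamini-Hochberg adjustment over 14680 genes. Unless another setting is named, adjusted p-values come from this fit. A fold is 2 to the power of the log2 difference. The steps were tested on simulated data for this comparison (14680 genes, 50 changed at each size), where 16% of differences of 0.25, 64% of 0.5, 98% of 1 and 100% of 2 were recovered and 10 of 149 calls were false. Far fewer genes were changed there than the 48.8% that passed in the data. Because the adjusted p depends on that share, these recovery rates do not carry over to the fit of the data. Members, lists and alternatives were chosen with earlier results of these data known. Named were members that differed by at least 1, up to 2 per role and direction, and fixed granule exocytosis genes; further members are named to account for all of them. The replicate numbers were not taken as pairs, since the correlations of same-numbered deviations were -0.039, 0.109 and 0.080.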

Additional observations from a re-analysis of the deposited data

How the results depend on the processing

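Over 16 alternatives, all 17 members that differed by at least 1 kept their direction and their call wherever they were tested, as did 50 of the 64 members called. The number of members higher in Mn1null lay between 40 and 45, against 44 as reported. The number lower was 20 as reported and 13 at a threshold of 0.01, and between 14 and 21 otherwise; leaving out each array in turn gave 41 to 43 higher and 14 to 18 lower. With the replicate number as a block, 42 members were higher and 17 lower. With each probe set tested on its own, an alternative chosen after seeing the data, 54 members had a probe set that was higher and 22 one that was lower. Of other trafficking genes, 31 to 48 were higher and 21 to 40 lower, against 44 and 30. With the mean of all probe sets the difference of Rab1a turned to 0.030 (adjusted p = 0.647) and that of Snapin to -0.073 (adjusted p = 0.212); the cause was not tested. Median centring and quantile normalization shifted the median of all genes by less than 0.1 on the log2 scale. Dim members, such as most synaptotagmins, have compressed differences, and 16 members could not be tested.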
